A study of Mus musculus with 4 samples.

Results

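The effect of adding 7-ketocholesterol (7KC) to a Western diet (WD) was examined in the liver genes that were well expressed, defined as a level of at least 5 FPKM, a read count scaled to transcript length and library size, in the WD library or in the WD+7KC library. Of 24346 gene symbols in the tables, 6927 met this rule. The liver RNA came from male ob/ob mice in every group, whose obesity comes from a lack of leptin. From 6 weeks of age the mice were fed for 4 weeks either chow (CD) or a high-fat, high-sucrose diet (WD), each with or without 0.01% 7KC, and each diet also held 1% cholesterol. There was 1 library in each of the 4 groups, and the number of mice behind a library is not given in the sources used here. Every difference given here is therefore a description of 2 libraries without a replicate check, and no p-value was computed.

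7KC is an oxysterol, that is, an oxidised form of cholesterol that occurs in stored and processed food. Hepatocytes make up most of the liver mass and express the secreted plasma proteins, the drug-metabolising cytochromes P450 and the enzymes of bile acid synthesis. Between the hepatocyte plates run sinusoids, which are lined by fenestrated endothelial cells with scavenger receptors and patrolled by resident macrophages called Kupffer cells. In whole liver, fewer cells of a type and less RNA per cell cannot be told apart.

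The libraries held an estimated 9400000 fragments in WD and 12060000 in WD+7KC, with the CD libraries between them, and the FPKM values summed to 699534 in WD and 602059 in WD+7KC. A median of 853 estimated reads lay behind a gene in the 2 libraries together. All 20 hepatocyte markers examined were above 5 FPKM, and Alb, the albumin gene, had the highest level of them in each library. Of 16 markers of pancreas, 14 were listed at 0 in CD and 12 in WD+7KC. Ratios were computed as the log2 of (FPKM + 0.1) in WD+7KC over that in WD, which understates the change of low genes. For many genes with a single RefSeq mRNA, a 95% interval from the estimated reads is given, and these intervals cover counting error only, not the variation between mice. Just inside the limit of 5 FPKM were G6pdx, with 5.0004 FPKM in WD+7KC and 3.02 FPKM in WD, and Dbr1, with 5.0032 FPKM in WD against 3.03 FPKM in WD+7KC. Just outside were Sec14l1, with 4.99 FPKM in WD+7KC and 3.64 FPKM in WD, and Surf6, with 4.9994 FPKM in WD against 4.06 FPKM in WD+7KC.

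Most of the 6927 genes had similar levels in the 2 libraries. The median log2 ratio was -0.08, the middle 50% of genes lay between -0.23 and 0.09, and 63.5% of the genes were below 0. More than 2-fold higher in WD+7KC were 119 genes (1.72%), and more than 2-fold lower were 42 genes (0.606%). Among these were 24 small RNA genes, 12 in each direction, of which 19 were listed at 0 in one of the 2 libraries. FPKM values of such short transcripts are unreliable, and they were left out below. This left 107 genes higher (1.55% of 6895) and 30 genes lower (0.435%). Of the 107 genes, 66 passed the limit of 5 FPKM only through WD+7KC, and of the 30 genes, 13 passed only through WD, so that the rule itself favoured genes with a difference. Among the 6344 genes of at least 5 FPKM in both libraries, 43 were more than 2-fold higher and 18 lower, small RNAs included.

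The balance between higher and lower genes depended on the scaling of the libraries. When both libraries were rescaled to equal sums of FPKM, the median log2 ratio moved by 0.22 to 0.14, and the genes past 2-fold became 191 higher and 24 lower, so that 88.8% of them were higher instead of 73.9%. Small ratios can thus change sign with the scaling, and the log2 medians of gene groups given below move with it too. They are to be read against the median of all 6927 genes, since a common scale factor leaves the distance from that median almost unaltered. In the scatter of the WD+7KC level against the WD level, the genes lay along the diagonal over 4 orders of magnitude, and the endothelial markers stood apart above it.

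**Figure D1:**
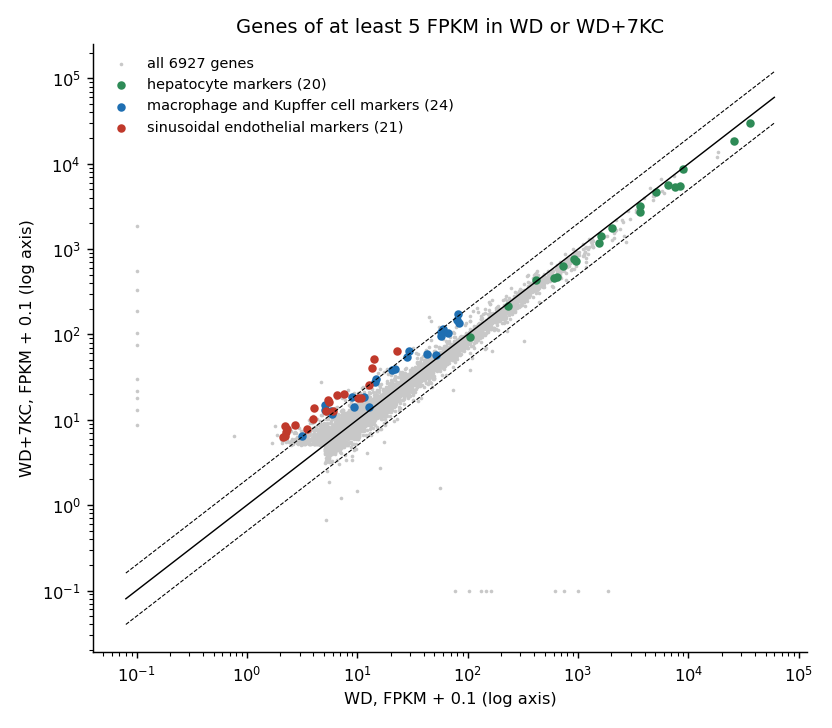
FPKM + 0.1 in WD (horizontal, log axis) and in WD+7KC (vertical, log axis) for the 6927 genes of at least 5 FPKM in either library, with 3 lists of cell type markers in colour; the solid line marks equal levels and the dashed lines a 2-fold difference. Of the 21 sinusoidal endothelial markers, 18 lie above the upper dashed line, as do 8 of the 24 macrophage and Kupffer cell markers and 0 of the 20 hepatocyte markers; points on the edges are genes listed at 0 in one library.

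The genes of liver sinusoidal endothelial cells were the group with the largest difference. Of 24 markers of this cell type, 21 were among the 6927 genes, and all 21 were at least 1.5-fold higher in WD+7KC, a threshold passed by 4.46% of all genes. Their median log2 ratio was 1.54, and 18 were more than 2-fold higher. All 24 markers of the full list, including the 3 below 5 FPKM, were above 0, with a median of 1.52, and the 12 of at least 5 FPKM in both libraries had 1.45. The summed level of the list was 179 FPKM in CD against 251 in CD+7KC, and 148 in WD against 399 in WD+7KC. The WD library therefore held the lowest sum and the WD+7KC library the highest.

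The receptors for vascular endothelial growth factors were among the genes that differed most. Kdr (VEGFR2, chromosome 5, 75932827 to 75978458, GRCm38) was at 3.73 FPKM in CD against 5.29 in CD+7KC, and 2.09 in WD against 8.36 in WD+7KC, a log2 ratio of 1.95 (1.71 to 2.31). Flt4 (VEGFR3) was at 2.98, 4.41, 2.23 and 7.74 FPKM in the same order of libraries, a log2 ratio of 1.75 (1.51 to 2.08). Both genes were lowest in WD and highest in WD+7KC. Tie1, which encodes an endothelial receptor tyrosine kinase, was at 3.53, 4.28, 2.15 and 7.05 FPKM, a log2 ratio of 1.67 (1.35 to 2.08).

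Scavenger and endocytic receptors, by which sinusoidal endothelium clears material from blood, followed the same order. Stab1, the stabilin-1 gene (chromosome 14, 31139013 to 31168641), was at 3.02 FPKM in CD against 4.87 in CD+7KC, and 2.61 in WD against 8.52 in WD+7KC, a log2 ratio of 1.67 (1.48 to 1.94). Fcgr2b, an inhibitory receptor for immunoglobulin G, was at 14.1, 24.6, 13.5 and 40.0 FPKM, and the lectin gene Clec4g was at 26.3, 48.7, 22.6 and 64.2 FPKM. Their log2 ratios were 1.56 and 1.504, the second with an interval of 1.29 to 1.73. Oit3 was at 7.33, 9.36, 5.38 and 16.8 FPKM (1.62, interval 1.36 to 1.94), and Gpr182, a receptor of sinusoidal and lymphatic endothelium, at 7.498, 10.5, 6.45 and 19.2 FPKM (1.56, interval 1.36 to 1.79). In each of these 5 genes WD was the lowest and WD+7KC the highest library. Lyve1, the hyaluronan receptor gene, named after its values were seen, was also highest in WD+7KC with 16.0 FPKM against 5.49 FPKM in WD, but it was at 9.82 FPKM in CD against 7.11 FPKM in CD+7KC.

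Junction and adhesion genes of endothelium were in the same range. Jam2, a junctional adhesion molecule gene (chromosome 16, 84774123 to 84825928), had the largest ratio of them, with 3.40 FPKM in CD against 4.02 in CD+7KC, and 1.71 in WD against 8.44 in WD+7KC (2.24, interval 1.93 to 2.70). Cdh5, which encodes VE-cadherin, was at 5.59, 6.60, 3.99 and 13.6 FPKM (1.74, interval 1.504 to 2.04), and Cldn5, the claudin-5 gene, at 2.70, 3.96, 2.01 and 6.10 FPKM (1.56, interval 0.92 to 2.32). Mcam was at 3.38, 3.16, 2.002 and 6.29 FPKM, Esam at 4.95, 6.09, 3.84 and 11.1 FPKM, and Icam2 at 2.33, 4.25, 1.92 and 5.79 FPKM, with log2 ratios of 1.60, 1.51 (1.12 to 1.97) and 1.55 (0.84 to 2.36). Pecam1, which encodes CD31, had a smaller ratio of 1.07, with 5.98 FPKM in WD against 12.7 FPKM in WD+7KC. Over the 16 adhesion molecule and integrin genes, 7 were more than 2-fold higher, and the median was 0.93. Of these 16, 8 passed the limit only through WD+7KC, and the median was 0.53 both over the 8 genes of at least 5 FPKM in both libraries and over all 44 members above 0 in either library, 12 of which were below 0. Those with smaller ratios included Itgb1, the widely expressed integrin beta 1 gene, at 0.22 (0.13 to 0.31).

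Other endothelial genes covered transport and transcription. Aqp1, the aquaporin-1 water channel gene, was at 18.2 FPKM in CD against 27.6 in CD+7KC, and 14.0 in WD against 50.9 in WD+7KC (1.86, interval 1.69 to 2.04). The transcription factor gene Sox18 was at 1.79 FPKM in WD against 6.50 FPKM in WD+7KC (1.80, interval 1.20 to 2.55), and Klf2, a flow-responsive transcription factor gene of endothelium, at 2.75 and 6.16 FPKM (1.14, interval 0.63 to 1.68). Bmp2, a ligand that endothelial cells secrete and that drives hepcidin expression in hepatocytes, was at 2.91 FPKM in CD against 3.79 in CD+7KC, and 2.10 in WD against 6.29 in WD+7KC (1.54, interval 1.19 to 2.004). Hamp, the hepcidin gene, named after its values were seen, was at 1464 FPKM in CD against 905 in CD+7KC, and 2027 in WD against 1264 in WD+7KC. Hamp was thus lower with 7KC under both diets. All of these genes except Hamp were higher in WD+7KC than in any other library.

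After the values were seen, 35 of the 107 higher genes were assigned to endothelial cells by what they are known for. WD+7KC was the highest of the 4 libraries for all 35 and WD the lowest for 31, where over all 6927 genes these shares are 22.3% and 14.6%. Since these genes were taken from those more than 2-fold higher in WD+7KC than in WD, such an order is largely built in and nothing is read from these shares. Among all 107 higher genes WD+7KC was the highest library for 101 and WD the lowest for 47. The median log2 ratio of the 35 endothelial genes was 1.51, and their ratios ranged from 1.04 to 2.24. Since WD was the lowest library in 31 of the 35 genes, the ratio between WD+7KC and WD holds both a low value in WD and a high value in WD+7KC.

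**Figure D2:**
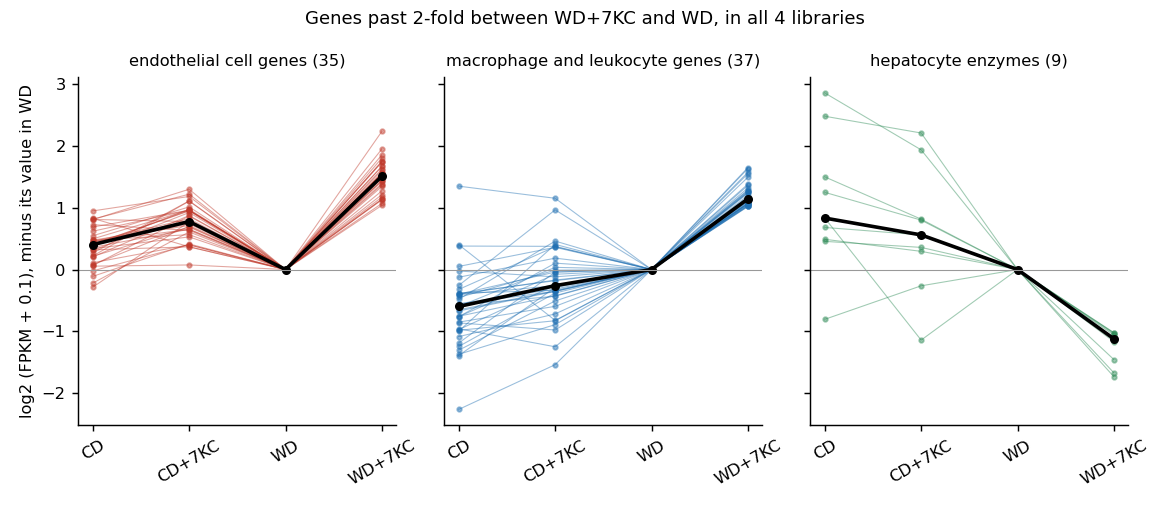
Levels in the 4 libraries, as log2 (FPKM + 0.1) minus the value in WD, of genes more than 2-fold different between WD+7KC and WD, in 3 groups assigned after the values were seen: 35 endothelial genes, 37 macrophage and other leukocyte genes and 9 hepatocyte enzyme genes; thin lines are genes and the thick black line is their median. The endothelial genes dip in WD, most leukocyte genes are lower in CD than in WD (4 of 37 are not), and the hepatocyte enzyme genes are lowest in WD+7KC.

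Macrophage genes were also higher in WD+7KC. Of 30 markers of macrophages and Kupffer cells, 24 were well expressed, and 21 of the 24 were more than 1.5-fold higher and 8 more than 2-fold higher, with a median log2 ratio of 0.91. All 30 markers of the full list were above 0 (median 0.94). Their summed level was 512 FPKM in CD against 672 in CD+7KC, and 783 in WD against 1390 in WD+7KC. Unlike the endothelial sum, this sum was higher in both WD libraries than in both CD libraries.

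Kupffer cell genes were among the markers with the larger ratios. Clec4f, a lectin gene specific to Kupffer cells, was at 20.9 FPKM in CD against 40.2 in CD+7KC, and 29.2 in WD against 64.5 in WD+7KC (1.14, interval 1.01 to 1.28). Cd5l (chromosome 3, 87357881 to 87371073), which encodes a secreted macrophage protein, was at 30.9, 66.3, 81.1 and 173 FPKM (1.09, interval 1.01 to 1.18), the highest level of these genes. Folr2, a folate receptor gene of resident macrophages, was at 4.37, 11.7, 8.81 and 18.4 FPKM, a log2 ratio of 1.05. All 3 genes were higher with 7KC under both diets. Adgre1, which encodes the macrophage antigen F4/80 (chromosome 17, 57358691 to 57483527), had the largest ratio of the list, with 2.92, 5.41, 5.03 and 14.9 FPKM (1.55). The scavenger receptor gene Msr1 was at 3.95, 6.44, 4.96 and 12.9 FPKM (1.36). Cybb, the catalytic subunit of the phagocyte NADPH oxidase, was at 3.31, 4.19, 5.66 and 12.6 FPKM (1.15, interval 0.95 to 1.38). The lysozyme gene Lyz2 was just below the threshold at 65.9, 77.2, 79.7 and 147 FPKM (0.89, interval 0.77 to 1.01).

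Some of the genes with the largest ratios were leukocyte genes outside this list. Clec4a3, a lectin receptor gene of myeloid cells, was at 2.52 FPKM in WD against 8.03 FPKM in WD+7KC (1.63), Igsf6 at 1.59 and 5.19 FPKM (1.65, interval 1.14 to 2.37), and Cyth4 at 2.41 and 7.36 FPKM (1.57, interval 1.19 to 2.04). Itgb2, the beta 2 integrin shared by leukocytes, was at 5.12 and 11.7 FPKM (1.17, interval 0.91 to 1.49). In all, 37 of the 107 higher genes were assigned to macrophages and other leukocytes after their values were seen. WD+7KC was the highest library for 36 of the 37, while WD was the lowest for 3 of them, and their median log2 ratio was 1.14. Over all 6927 genes these shares are 22.3% and 14.6%. Since the 37 genes were taken from those more than 2-fold higher in WD+7KC, this order is largely built in. Nothing is read from it.

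Genes that macrophages switch on in lipid-rich tissue were split. Of 13 such genes, 3 were more than 2-fold higher, and the median of the list was 0.33. Mmp12, the macrophage elastase gene, was at 2.37 FPKM in CD against 3.35 in CD+7KC, and 6.29 in WD against 17.9 in WD+7KC (1.49). Gpnmb was at 2.25, 3.77, 11.2 and 24.4 FPKM (1.12, interval 0.96 to 1.31), and the actin-capping gene Capg at 4.63, 4.27, 8.51 and 18.9 FPKM (1.14). All 3 were higher in WD than in CD, and higher again in WD+7KC. Lgals1, the galectin-1 gene, which many cell types express, was at 306 FPKM in WD against 304 FPKM in WD+7KC, and Cd36, which hepatocytes express as well, had a ratio of 0.33.

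Antigen presentation, chemokine and interferon genes had smaller ratios. The 6 well-expressed genes of MHC class II presentation had a median of 0.44, led by H2-DMb1 with 6.56 FPKM in WD against 11.7 FPKM in WD+7KC (0.83, interval 0.44 to 1.25), and Cd74, the invariant chain, was at 166 and 251 FPKM (0.60). For MHC class I the median over 14 genes was -0.01. The 10 chemokine and receptor genes had a median of 0.48, or 0.30 over the 48 members above 0 in either library. Of the 10, 5 were more than 1.5-fold higher and 1 lower, where 4.46% and 2.79% of all genes were. More than 2-fold higher, as were 1.72% of all genes, were 2 of the 10. These were Ccl6 with 18.6 and 39.1 FPKM (1.07, interval 0.84 to 1.30) and Cxcl9, an interferon-gamma target, with 6.44 and 13.9 FPKM (1.10, interval 0.85 to 1.38). Cxcl12 was at 76.0 and 56.7 FPKM. The 26 interferon-stimulated genes had a median of 0.25 (0.18 over the 24 of at least 5 FPKM in both libraries), and Cxcl9 was the only one of them past 2-fold. Tgfb1, which encodes the cytokine transforming growth factor beta 1, was at 3.03 FPKM in CD against 3.06 in CD+7KC, and 3.97 in WD against 9.38 in WD+7KC (1.22, interval 0.85 to 1.63). It was the only member past 2-fold among 10 genes of that pathway. Of 20 markers of lymphocytes and neutrophils, 3 were well expressed, with a median of -0.09. S100a8, a neutrophil gene, was at 11.8, 10.3, 4.58 and 11.1 FPKM, so that its ratio of 1.26 came with a low value in WD, while S100a9, whose product pairs with that of S100a8, had a ratio of -0.09 and the chemokine gene Ccl5 one of -0.24.

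Matrix and stellate cell genes were only slightly higher. The median was 0.20 over 14 markers of stellate cells and fibroblasts and 0.32 over 13 collagen and matrix genes, and no member of either was past 2-fold. Over the full lists, with genes below 5 FPKM, these medians were 0.07 for 19 stellate cell genes, 8 of which were below 0, and 0.19 for 48 matrix genes. Col4a1 and Col4a2, the basement membrane collagens, were at 11.8 and 18.2 FPKM (0.63) and at 5.59 and 9.12 FPKM (0.70, interval 0.52 to 0.90) in WD and WD+7KC. The fibrillar collagen genes were closer to no difference, Col1a1 at 7.86 and 9.52 FPKM (0.27, interval 0.10 to 0.46) and Col1a2 at 11.1 and 11.6 FPKM (0.07, interval -0.09 to 0.24). Vim, the vimentin gene of mesenchymal and endothelial cells, was at 20.5 and 35.6 FPKM (0.79, interval 0.62 to 0.97). Dcn, the decorin gene of stellate cells, was at 145 and 137 FPKM.

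Most cytoskeletal genes were slightly higher. Of 30 keratin and cytoskeleton genes, 29 were above the median of all genes and 8 were more than 1.5-fold higher, with a median of 0.48. The keratins of hepatocytes and bile duct cells, Krt8 and Krt18, were at 355 and 497 FPKM and at 247 and 347 FPKM in WD and WD+7KC, log2 ratios of 0.49 for both, and were among the 10 genes with the largest gain in FPKM. Tmsb4x, an actin-binding peptide gene, was at 345 and 484 FPKM (0.49, interval 0.41 to 0.57). Tubb2b, a tubulin gene, was the only one past 2-fold, with 1.97 and 5.21 FPKM (1.36, interval 0.86 to 1.97). Spp1, the osteopontin gene of bile duct cells and macrophages, was at 124 and 183 FPKM (0.56). Among 11 cell cycle and replication genes the median was 0.44, or 0.30 over the 7 of at least 5 FPKM in both libraries, with no gene past 2-fold, and Birc5, a mitotic gene, was at 3.32 and 5.70 FPKM.

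Apart from endothelial and leukocyte genes, 7 of the 107 higher genes were assigned to enzymes of sterol, steroid, retinoid and lipid metabolism after their values were seen. The retinoid metabolism list was not higher as a whole, with a median of -0.24 over 19 genes, 1 of which was past 2-fold. The lists of fatty acid and cholesterol synthesis, given below, had medians of 0.11 and 0.01. In them, 16 of 22 and 18 of 25 genes were above the median of all genes. The steroid sulfotransferase gene Sult1e1, which inactivates estrogens (chromosome 5, 87575969 to 87591594), had the largest ratio of any gene above 0 in all 4 libraries outside the small RNAs and unnamed loci. It was at 40.2 FPKM in CD against 63.6 in CD+7KC, and 4.61 in WD against 27.5 in WD+7KC (2.55, interval 2.13 to 3.06). Its level in WD+7KC thus stayed below both CD libraries. Cyp17a1, a steroid hydroxylase gene, was at 11.8, 21.2, 31.5 and 69.1 FPKM (1.13, interval 0.98 to 1.28), and the retinoic acid hydroxylase gene Cyp26b1 at 1.29, 2.01, 2.02 and 6.22 FPKM (1.58). Scd2, a stearoyl-CoA desaturase gene, was at 3.61, 8.04, 5.55 and 11.5 FPKM (1.04, interval 0.86 to 1.26). These 4 genes were higher with 7KC under both diets. Apoc4-apoc2, a readthrough of neighbouring apolipoprotein genes, was listed at 0 in WD and at 7.41 to 8.86 FPKM in the other libraries. It shares exons with both neighbours, so that its value is uncertain.

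Synthesis genes of fatty acids and cholesterol showed few large differences. Of 22 fatty acid synthesis genes, 16 were above the median of all genes, with a median of 0.11, 1 past 2-fold higher and 1 lower. Fasn, the fatty acid synthase gene, was at 59.4 FPKM in WD against 88.6 FPKM in WD+7KC (0.58, interval 0.53 to 0.63), and Acaca, the acetyl-CoA carboxylase gene, at 25.3 and 35.5 FPKM (0.49, interval 0.41 to 0.57), whereas Scd1, the main desaturase gene of liver, was at 9220 and 8275 FPKM. Elovl3, a fatty acid elongase gene, was lower, with 54.6 FPKM in CD against 45.2 in CD+7KC, and 9.71 in WD against 4.41 in WD+7KC (-1.12, interval -1.53 to -0.75). The 25 genes of cholesterol synthesis and other SREBP2 targets had a median of 0.01, with Mvd, a mevalonate pathway gene, as the only one past 2-fold. Mvd was at 2.04, 3.20, 2.85 and 6.09 FPKM (1.07).

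Of the 30 lower genes, 9 were assigned to hepatocyte enzymes after their values were seen, and 17 to no group. WD+7KC was the lowest of the 4 libraries for 24 of the 30, an order that the choice of these genes largely fixes. The share over all genes, 38.8%, is therefore no measure of it. Cyp8b1, the sterol 12-alpha-hydroxylase gene that sets the share of cholic acid in bile acids (chromosome 9, 121914356 to 121916305), was at 186 FPKM in CD against 47.3 in CD+7KC, and 104 in WD against 38.0 in WD+7KC (-1.46, interval -1.58 to -1.34). It was lower with 7KC under both diets. Cyp3a11, the main drug-oxidising P450 of its family in mouse liver (chromosome 5, 145854426 to 145879964), was at 3735 FPKM in CD against 3491 in CD+7KC, and 2724 in WD against 1214 in WD+7KC (-1.17, interval -1.19 to -1.15). Its 2 CD libraries were similar, and the WD+7KC library lay below the other three. Igfbp2, which encodes a binding protein of insulin-like growth factors (chromosome 1, 72824503 to 72852474), was at 35.2, 28.7, 22.7 and 10.18 FPKM (-1.15). The sequences upstream of these 3 genes hold the letters CAAAGTCC, a core of the binding motif of the hepatocyte nuclear factor HNF4, shown in capitals below. They were taken from the RefSeq promoter table of GRCm38.p6, are written 5′ to 3′ on the strand of the gene, and are shown because these are the lower genes of the table with this motif in the 250 bases before their start. The Cyp8b1 stretch lies at chr9:121916306-121916425, the Cyp3a11 stretch at chr5:145879945-145879974 and the Igfbp2 stretch at chr1:72824245-72824274. The Cyp8b1 and Igfbp2 stretches overlap no annotated exon, while the Cyp3a11 stretch overlaps the first exon of a GENCODE transcript that starts farther upstream.
Cyp8b1: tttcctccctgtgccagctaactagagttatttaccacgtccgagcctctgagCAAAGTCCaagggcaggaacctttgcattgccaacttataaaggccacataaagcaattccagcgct
Cyp3a11: gaagagagtacCAAAGTCCagtgatgcaaa
Igfbp2: gctgaagggagCAAAGTCCtaaccagggaa

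A promoter was found for 20 of the 30 lower genes, and the motif, searched on both strands, was present in 3 of these 20 (15.0%), against 1.73% of the 5325 well-expressed genes with a promoter and 1.38% of 27025 genes in the table. A match of letters is a description and not a binding site, and 3 genes are few.

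Cyp7a1, the rate-limiting enzyme of bile acid synthesis, was just short of 2-fold, with 18.1 FPKM in CD against 11.5 in CD+7KC, and 13.1 in WD against 6.53 in WD+7KC (-0.99, interval -1.21 to -0.79). Like Cyp8b1 it was lower with 7KC under both diets. Over 24 genes of oxysterol and bile acid metabolism the median was -0.26, 4 were more than 1.5-fold lower (2.79% of all genes) and none was more than 1.5-fold higher. Scp2, a sterol carrier protein gene, had the highest level of the list, with 2095 FPKM in WD against 1713 FPKM in WD+7KC (-0.29). Nr0b2, which encodes the repressor SHP that bile acids induce, was at 15.1 and 18.5 FPKM (0.29, interval -0.03 to 0.62). LXR targets and sterol efflux genes had a median of -0.20 over 15 genes, and the LXR target Mylip was at 4.93 and 8.50 FPKM (0.77, interval 0.48 to 1.09).

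G6pc, the glucose-6-phosphatase gene of gluconeogenesis, was at 182 FPKM in CD against 183 in CD+7KC, and 144 in WD against 67.5 in WD+7KC (-1.10, interval -1.18 to -1.01). It was the only one of 25 glucose metabolism genes past 2-fold, and the median of the list was -0.09, close to that of all genes. Among urea cycle and amino acid genes the median was -0.26 over 46 genes. Agxt, a glyoxylate aminotransferase gene, was at 46.7 and 26.9 FPKM (-0.79, interval -0.98 to -0.62), and Oat, the ornithine aminotransferase gene, was at 159 and 228 FPKM (0.53, interval 0.46 to 0.59).

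Drug-metabolising enzymes lay mostly below the median. Of 32 P450 genes of families 1 to 3, 26 were below the median of all genes, 6 were more than 1.5-fold lower and 0 more than 1.5-fold higher, with a median of -0.29. Cyp2e1, a P450 of pericentral hepatocytes, was at 3444 FPKM in CD against 2778 in CD+7KC, and 2585 in WD against 1424 in WD+7KC (-0.86, interval -0.88 to -0.84). Cyp2c50 was at 47.8 FPKM in WD against 24.0 FPKM in WD+7KC (-0.99), and Nr1i3, which encodes the xenobiotic receptor CAR, at 29.4 and 19.2 FPKM (-0.61). Glucuronosyl- and sulfotransferases had a median of -0.35 over 19 genes, with Sult2a8 as the lowest at 17.2 and 5.33 FPKM (-1.67) and Sult1e1, given above, as the highest. The carboxylesterase gene Ces3a was at 543 FPKM in CD against 397 in CD+7KC, and 228 in WD against 109 in WD+7KC (-1.06). P450s, carboxylesterases and sulfotransferases have close paralogs, between which reads may have been divided.

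Genes that are higher in male than in female mouse liver were lower as a group. All 10 well-expressed genes of this kind were below the median of all genes, with a median of -0.59. Over the 8 of at least 5 FPKM in both libraries the median was -0.54. Of the 10 genes, 3 were more than 2-fold lower, where 0.606% of all genes were. The fatty acid hydroxylase gene Cyp4a12a was at 119 FPKM in CD against 109 in CD+7KC, and 73.9 in WD against 22.2 in WD+7KC (-1.73, interval -1.88 to -1.60), although reads of its near-identical neighbour cannot be told apart. Serpina1e was at 143, 23.2, 8.77 and 3.30 FPKM (-1.38, interval -1.95 to -0.86) and Elovl3, given above, was the third. Serpina1e has close paralogs, among them Serpina1b at 2936 FPKM in WD, so that its value is uncertain. Serpina1e and Elovl3 passed the limit of 5 FPKM only through WD. Mup20, a major urinary protein gene, was at 2754 FPKM in CD against 2454 in CD+7KC, and 8315 in WD against 5747 in WD+7KC (-0.53), so that it was higher in both WD libraries than in both CD libraries. The 9 well-expressed genes that are higher in female liver had a median of 0.17, which was 0.07 over the 7 of at least 5 FPKM in both libraries, and Sult1e1 and Cyp17a1 were the 2 past 2-fold. The growth hormone, insulin and leptin signalling genes had a median of -0.22 over 19 genes, with Igfbp2 as the only one past 2-fold.

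Hepatocyte markers, coagulation factors and respiratory chain subunits were mostly slightly lower. Of the 20 hepatocyte markers, 18 were below the median of all genes, with a median of -0.24 and a range from -0.60 to 0.07. Of 23 coagulation and fibrinolysis factors, 22 were below it, with a median of -0.27, and the plasma kallikrein gene Klkb1 was at 38.3 and 25.2 FPKM in WD and WD+7KC (-0.60, interval -0.70 to -0.50). Of 77 respiratory chain subunits encoded in the nucleus, 72 were below it, with a median of -0.25 and a range from -0.49 to 0.50. Uqcrq, a complex III subunit gene, was at 1223 and 886 FPKM (-0.46, interval -0.50 to -0.43). Other secreted proteins of hepatocytes were closer to all genes, with a median of -0.05 over 28 acute-phase proteins, 16 of which were above the median of all genes, and -0.14 over 27 complement factors, 12 of which were above it. When the libraries were rescaled to equal sums, 10 of the 20 hepatocyte markers, 14 of the 23 coagulation factors and 52 of the 77 respiratory chain genes were below 0.

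The largest losses in FPKM were in the most abundant transcripts. The 10 genes with the largest losses together held 22.4% of the FPKM sum in WD and 19.3% in WD+7KC, and they made up 41.0% of the net loss over all 6927 genes. Apoa2, an apolipoprotein gene of high density lipoproteins, was at 31252 FPKM in CD against 31146 in CD+7KC, and 25732 in WD against 18221 in WD+7KC (-0.50). Alb was at 35084, 31205, 35981 and 30014 FPKM (-0.26), and Fabp1, the liver fatty acid-binding protein gene, at 19129, 15788, 18683 and 13842 FPKM (-0.43). Apoa1 was at 7081, 4322, 8322 and 5501 FPKM (-0.60), lower with 7KC under both diets, and Apoc1 at 27820, 25009, 18088 and 12154 FPKM (-0.57). WD+7KC was the lowest library for Apoa2, Alb, Fabp1 and Apoc1. Among the largest gains, Apoa4, an apolipoprotein gene that rises with hepatic fat, was at 3014 FPKM in CD against 1797 in CD+7KC, and 5653 in WD against 6673 in WD+7KC (0.24, interval 0.23 to 0.25). Plin2, the lipid droplet coat gene, was at 781, 629, 757 and 868 FPKM (0.20, interval 0.16 to 0.23). Both Apoa4 and Plin2 were thus lower with 7KC under CD. Psap, the lysosomal prosaposin gene, was at 331, 346, 413 and 524 FPKM (0.34).

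Lists of stress and housekeeping functions mostly had medians close to that of all genes. The median was 0.08 over 24 unfolded protein response genes, 0.05 over 18 heat shock chaperones, 0.04 over 20 NRF2 targets and metallothioneins, -0.16 over 37 proteasome subunits and -0.16 over 77 cytosolic ribosomal proteins. Single genes still stood apart in them. Atf3, a stress-induced transcription factor gene, was at 4.97 FPKM in CD against 6.28 in CD+7KC, and 4.35 in WD against 8.52 in WD+7KC (0.95, interval 0.57 to 1.38). Gdf15, a stress-induced cytokine gene, was at 33.9, 43.3, 15.3 and 29.7 FPKM in the same order (0.96), so that WD+7KC stayed below both CD libraries. Hmox1, the heme oxygenase gene, was at 42.4, 19.3, 19.9 and 33.1 FPKM (0.73, interval 0.51 to 0.95), with CD as the highest library. Lysosomal proteins had a median of 0.16, with 34 of 36 above the median of all genes. They were led by the protease genes Lgmn with 46.8 and 85.3 FPKM in WD and WD+7KC (0.86, interval 0.75 to 0.99) and Ctss with 66.1 and 103 FPKM (0.64). Autophagy genes had a median of -0.15 over 35 genes, and none was past 2-fold. Fatty acid oxidation genes had a median of -0.22 over 40, with Cyp4a12a as the only one past 2-fold.

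**Figure D3:**
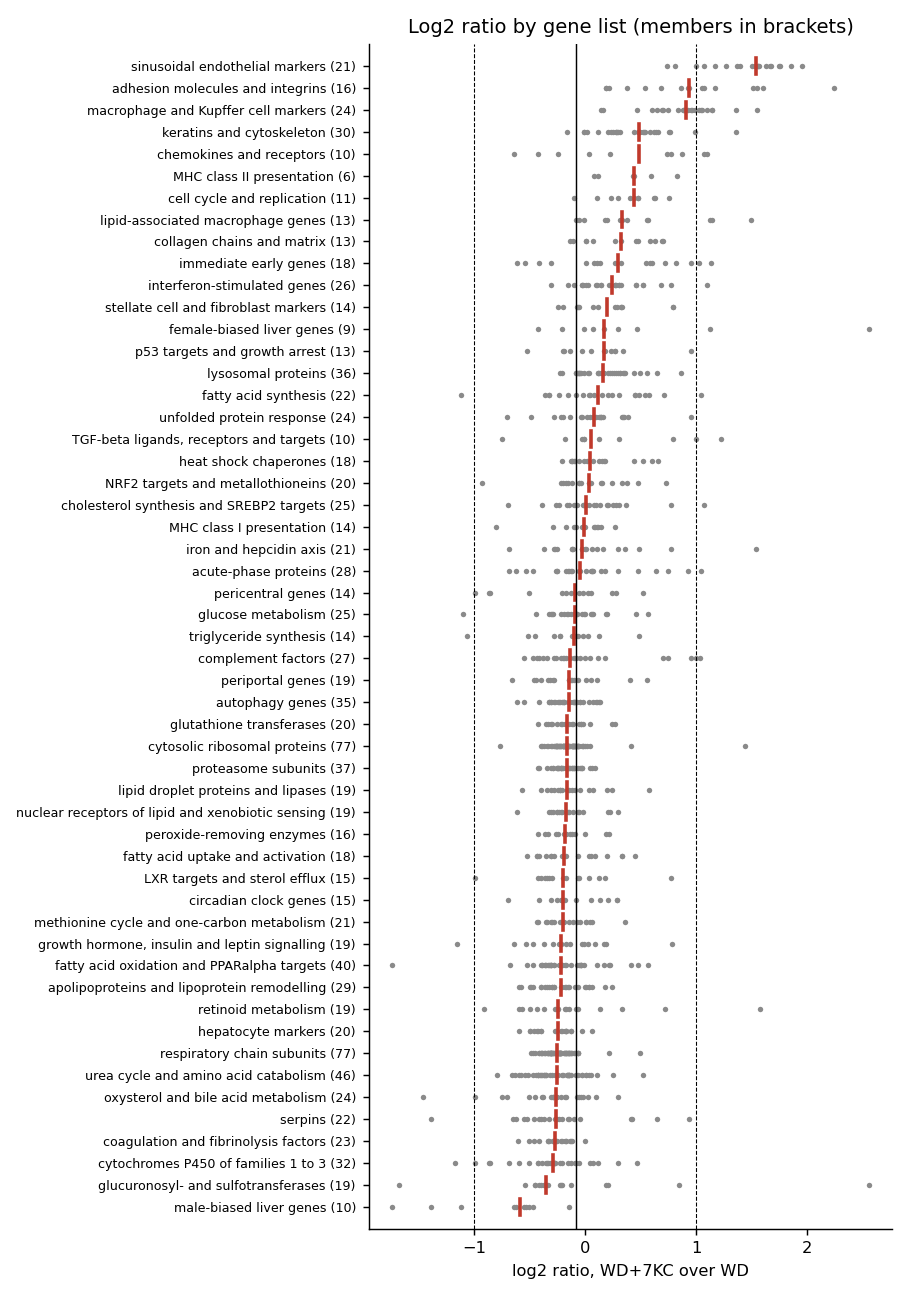
Log2 ratio of WD+7KC over WD (horizontal) for the members of the 53 gene lists with at least 5 well-expressed members, ordered by list median; each grey point is a gene, red bars are list medians, the solid line is the median of all 6927 genes (-0.08) and the dashed lines mark 2-fold. List medians run from -0.59 for male-biased liver genes to 1.54 for sinusoidal endothelial markers, and most lists lie close to the solid line.

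The same 6927 genes were then described in the CD pair, which shares no library with the WD pair. Between CD+7KC and CD the median log2 ratio was -0.02, with 40 genes more than 2-fold higher (0.577%) and 34 lower (0.491%). Across genes, Spearman's rho between the ratios of the 2 diets was 0.09, which is a description, since genes are not independent replicates. Of the 107 genes higher under WD, 89 (83.2%) were above 0 under CD, where 46.3% of all genes were. Of the 30 lower genes, 22 were below 0 under CD, where 3705 of all 6927 genes were. The share above 0 under CD was 26.7% for the 30 genes and 46.3% for all genes. The median under CD was 0.40 over the 35 endothelial genes, with 32 of 35 above 0, and 0.32 over the 37 leukocyte genes, with 31 of 37 above 0. The difference between the diets in these ratios was not tested, since each ratio rests on 1 library a side. Past 1.5-fold under WD were 309 higher and 193 lower genes, small RNAs included. Under CD, 2.24% of all genes were past it higher and 1.96% lower. Without small RNAs, 62 genes were past 1.5-fold higher under both diets and 23 lower under both, while 24 went opposite ways. Among the 62 were Clec4f, Cd5l, Folr2, Scd2 and Cyp17a1, and the endothelial genes Stab1, Fcgr2b, Clec4g, Aqp1 and Icam2. Other endothelial genes, such as Kdr and Cdh5, were not past 1.5-fold under CD (0.49 and 0.24). Among the 23 were Cyp8b1, Cyp7a1, Apoa1 and Mup3.

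**Figure D4:**
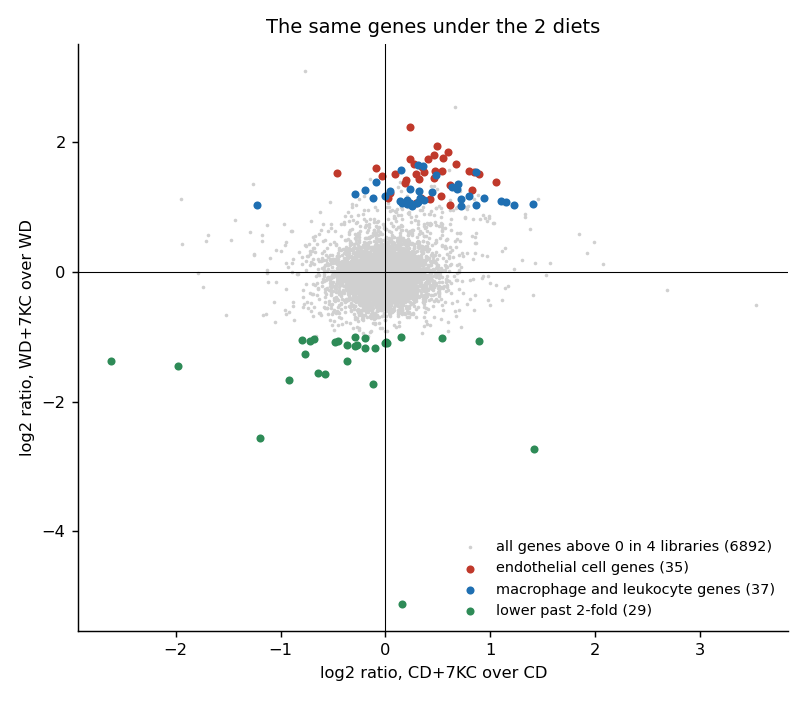
Log2 ratio of CD+7KC over CD (horizontal) and of WD+7KC over WD (vertical) for 6892 genes above 0 in all 4 libraries, small RNAs left out, with the 35 endothelial genes, the 37 leukocyte genes and the 29 lower genes drawn here in colour. Most coloured points above the horizontal axis lie to the right of 0 (32 of 35 endothelial and 31 of 37 leukocyte genes), at smaller ratios than on the vertical axis.

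Matrix, keratin and female-biased genes differed in direction or size between the diets. Collagen and matrix genes had a median of 0.32 under WD and -0.46 under CD, where 0 of 13 were above 0, and keratin and cytoskeleton genes had 0.48 and -0.23. Col1a1 was at 8.23 FPKM in CD against 3.40 FPKM in CD+7KC, and Krt18 at 260 and 162 FPKM. Female-biased genes had a median of 0.84 under CD and 0.17 under WD, which became 0.69 and 0.03 over the 20 members above 0 in either WD library. Cyp2b9, one of them, was at 97.4 FPKM in CD against 202 FPKM in CD+7KC, but at 116 FPKM in WD against 100 FPKM in WD+7KC. Gstm1, a glutathione transferase gene, was at 2798, 6277, 4880 and 4193 FPKM in CD, CD+7KC, WD and WD+7KC, so that CD+7KC was the highest library.

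Transcript length and level moved with the ratio in the WD pair. The median log2 ratio was -0.19 for 444 genes with a longest transcript of 300 to 1000 bases and 0.05 for 531 genes of 6000 bases or more, whereas in the CD pair it was 0.00 and -0.07. By level, it was -0.06 for 1684 genes with a mean of 10 to 20 FPKM and -0.26 for 64 genes of at least 1000 FPKM. The endothelial markers had a median of 1.54 both for the 15 of at least 3000 bases and for the 6 shorter ones, where all genes of these lengths had -0.03 and -0.13. Macrophage markers had 0.99 over 7 longer and 0.88 over 17 shorter genes, and hepatocyte markers -0.17 over 7 and -0.39 over 13. The part of transcript length in the smaller differences was not tested.

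**Figure D5:**
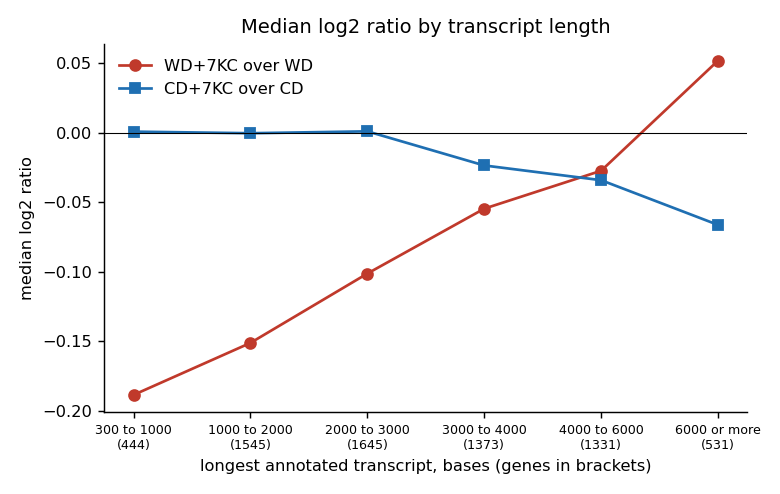
Median log2 ratio (vertical) by length of the longest annotated transcript (horizontal, number of genes in brackets) for WD+7KC over WD (red circles) and CD+7KC over CD (blue squares). The red line climbs from -0.19 to 0.05 with length, while the blue line runs from 0.00 to -0.07.

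Promoters of the leukocyte genes were searched for GAGGAAGT, a core of the motif of PU.1, the transcription factor of myeloid cells. On both strands of the 250 bases before the start, it was found in 4 of 27 of these genes with a promoter in the table (14.8%). Among the well-expressed genes the share was 2.72%. The motif was in 0 of 20 endothelial genes and in 2 of 20 lower genes, 1810041H14Rik and Hsd17b6. The leukocyte genes were assigned to these cells after their values were seen. A higher share of a myeloid motif than in all well-expressed genes may come from that choice alone. Whether the motif bears on the difference between the diets was not tested, and 4 genes are few. The 4 genes are Mmp12, given above, Cd300ld, a myeloid receptor gene, S100a8 and Bcl2a1b, a survival gene of leukocytes whose paralogs are nearly identical. The motif, or its reverse complement ACTTCCTC, is in capitals in stretches at chr9:7344298-7344327, chr11:114990011-114990040, chr3:90668888-90668917 and chr9:89199114-89199143 (GRCm38.p6), shown because they are all the matches among these genes.
Mmp12: ccacttcacccACTTCCTCttccaagactc
Cd300ld: tctactcattaGAGGAAGTtccctgttcac
S100a8: ccaacactcccACTTCCTCagactcagaaa
Bcl2a1b: cagaagaggaaGAGGAAGTggtgtgttgct

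The levels of these 4 genes in WD and WD+7KC were 6.29 and 17.9 FPKM for Mmp12, 4.06 and 9.995 FPKM for Cd300ld, 4.58 and 11.1 FPKM for S100a8, and 2.65 and 7.07 FPKM for Bcl2a1b. A further search for ACAGGAAG, a motif of ETS factors, found 4 of 27 leukocyte genes and 0 of 20 endothelial genes, against 3.31% of the well-expressed genes. For TCACCCCA, a sterol response element, it found 2 of 17 genes of cholesterol synthesis, Hmgcs1 and Srebf2, against 1.84%, and Hmgcs1, the HMG-CoA synthase gene, was at 55.6 FPKM in WD against 49.8 FPKM in WD+7KC. CCCCACCC, a motif of KLF factors, was in 2 of 20 endothelial genes, Aqp1 and Kdr, against 13.3%. No match says only that these letters are not in this window. The limit given above on the choice of the leukocyte genes holds for their share with the ETS motif too.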

How the data were processed

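Poly(A) RNA of liver was sequenced as stranded, single-end libraries in 4 groups with 1 library each. Per the labels and the study's methods, the authors mapped the reads to mm10 with TopHat2 2.0.13, Bowtie2 2.2.3 and SAMtools 0.1.19, computed FPKM values with Cufflinks 2.2.1 and deposited these FPKM values, 1 for each gene symbol in each library. The annotation and the Cufflinks options are not given in the sources used here. FPKM fixes the sum over reads and not over molecules, so that a few abundant transcripts can move all other values.

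Genes of at least 5 FPKM in WD or WD+7KC were kept, and log2 ratios were computed with a pseudocount of 0.1 FPKM. With 1 library per group no test was run. Genes were counted past 2-fold and 1.5-fold, and 60 gene lists, 59 with members, were described by counts and medians beside all genes. The members and lists were chosen with earlier results of these data known. Named genes are the 20 highest and 20 lowest ratios (without small RNAs, transcripts under 300 bases and unnamed loci), the 10 largest gains and losses in FPKM, up to 6 members past 2-fold of each list, otherwise the 3 farthest from the median, the highest-level member of each list, and genes of the study's qPCR. Others were named after their values were seen. Transcript lengths and coordinates came from GENCODE (GRCm38), found for 6901 of the 6927 genes, and promoters from RefSeq (GRCm38.p6).

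Library depth was estimated from the spacing of low FPKM values, over genes that have only 1 RefSeq mRNA, with 200 bases taken off the length. Between 73.2% and 74.0% of these low values lay within 0.1 of a whole read. Exact (Clopper-Pearson) 95% intervals of a ratio were computed from these reads for 4392 genes with 1 mRNA of at least 700 bases. The code was tested on simulated data. Python 3.11.15, numpy 2.4.6, pandas 2.3.3, scipy 1.17.1 and matplotlib 3.10.9 were used. Some genes are not reported here.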

Additional observations from a re-analysis of the deposited data

Results flagged for a closer look

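In 11 genes named here, leaving out the unnamed locus 1810041H14Rik, the ratio with 7KC was more than 1.5-fold in opposite directions under the diets. Each ratio has 1 library a side, and the difference between the diets was not tested. All log2 ratios below are given first for WD+7KC over WD and then for CD+7KC over CD. Higher under WD and lower under CD were Cd14 (1.04 and -1.22), the tubulin gene Tubb2b (1.36 and -1.26), Hmox1 (0.73 and -1.13), Timp1 (0.79 and -1.44), the chemokine gene Ccl2 (0.74 and -0.97), Tnfrsf12a (0.62 and -1.29) and the epithelial stress gene Sprr1a (1.12 and -1.95). Sprr1a was at 66.3 FPKM in CD against 17.1 in CD+7KC, and 80.2 in WD against 174 in WD+7KC. For Cd14, the receptor for endotoxin, these levels were 4.05, 1.68, 3.05 and 6.37 FPKM. Lower under WD and higher under CD were the P450 gene Cyp2c37 (-0.85 and 0.72), Nr1i3 (-0.61 and 0.67), Rmnd1 (-1.06 and 0.89) and the RNase P RNA Rpph1 (-2.74 and 1.42), a short transcript without a poly(A) tail whose FPKM is uncertain. Sprr1a, Tnfrsf12a and Ccl2 were named after their values were seen. The locus left out, 1810041H14Rik, had ratios of -2.98 and 5.09, but it was listed at 0 in CD. Over all genes without small RNAs, 24 moved more than 1.5-fold in opposite directions, while 62 were higher and 23 lower under both diets.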

How the results depend on the processing

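No paired analysis was possible because each group has 1 library. The counts past 2-fold, 119 higher and 42 lower, depended most on the filter: they were 978 and 440 for all genes above 0 in either library, 414 and 107 at a limit of 1 FPKM, 61 higher at a limit of 10 FPKM, and 43 and 18 with 5 FPKM required in both libraries. A 1.5-fold threshold gave 309 and 193, and a 4-fold threshold 14 and 14. Equal sums gave 191 and 24 and moved the median to 0.14, and equal sums without the 20 genes of highest mean FPKM gave 25 lower and a median of 0.093. Of 143 named genes not past 2-fold, 23 changed direction under some alternative. None of the 68 past 2-fold did, which the size of these alternatives fixes and which is no sign of stability. The distance of a list median from that of all genes kept its sign under all 12 alternatives for 52 of 59 lists, among them all 22 lists more than 0.2 away, although a common scaling hardly moves this distance by construction. Every alternative uses the same 2 libraries, so none bears on the variation between mice.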

Other observations

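Several higher genes belong to none of the groups described above, and they were named after their values were seen. Atp6v0c, which encodes a subunit of the proton pump of lysosomes, was at 172 FPKM in CD against 149 in CD+7KC, and 54.9 in WD against 124 in WD+7KC, so that WD was the lowest library (log2 ratio 1.17, interval 1.02 to 1.32). Osgin1, an oxidative stress response gene, was also lowest in WD, with 42.4, 34.1, 18.3 and 37.9 FPKM in the same library order (1.04, interval 0.86 to 1.24). In contrast, Slpi, a secreted protease inhibitor gene, was at 2.44, 2.03, 8.99 and 19.7 FPKM (1.13, interval 0.69 to 1.60), higher in both WD libraries than in both CD libraries. Ly6a, which encodes the surface antigen Sca-1, was at 5.33, 7.36, 7.75 and 19.6 FPKM (1.33, interval 0.90 to 1.81).

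Immediate early and transcription factor genes were spread widely. Over 18 such genes the median was 0.29, which was 0.13 over the 15 of at least 5 FPKM in both libraries. Myc was at 2.94 FPKM in WD against 6.09 FPKM in WD+7KC (1.03), and it and Klf2, the 2 past 2-fold, passed the limit only through WD+7KC, while Zfp36, an mRNA decay factor gene, was at 49.1 and 32.1 FPKM (-0.61, interval -0.73 to -0.49). The red blood cell gene Hba-a1, whose twin copy is nearly identical, was at 89.8 FPKM in CD against 54.5 in CD+7KC, and 146 in WD against 70.0 in WD+7KC. The 3 well-expressed members of the red blood cell list were all lower in WD+7KC (median -0.41). Hbb-b1, a beta-globin entry outside that list, was at 93.6, 72.8, 165 and 63.6 FPKM in the same library order (-1.37). Cib3 was at 15.9 FPKM in WD and at 1.03 to 2.62 FPKM in the other 3 libraries.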
